A study of Mus musculus with 2 samples.

Results

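The genes described here are 36 markers and regulators of blood and lymphatic endothelium, the cell layer that lines vessels, measured in the bladder of newborn mice. They were found by gene identifier, with the version number removed, through their symbols in the GENCODE M21 annotation, and all 36 were among the 43346 mouse genes of the deposited files. The samples were whole urinary bladders of 2 B6NCrl littermates, newborn (postnatal day 0) offspring of 1 dam. Each gave 1 total RNA library, from a 10 ng input of RNA above 200 nt to which spike-in RNAs were added. Both belong to a single group, no sex was recorded, and the labels name no transgene, treatment or cell sorting. Whole tissue mixes endothelium with muscle, urothelium, stroma and blood, so for any gene, fewer cells of a type and less RNA per cell cannot be told apart.

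Blood endothelial cells are held together by junction proteins such as VE-cadherin and PECAM-1, and their vessels are stabilised by angiopoietin signals read by the Tie receptors. Lymphatic endothelial cells arise largely from embryonic veins under the regulator PROX1, and they carry the hyaluronan receptor LYVE-1 and the mucin podoplanin on their surface. SOX and ETS transcription factors act early in both lineages, and capillaries of the blood circulation add their own genes for lipid handling and for the diaphragms that bridge openings in the vessel wall.

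Depth was 1.34 times higher in pup 1, at 43653931 expected counts against 32564563 in its littermate. Levels are given as TPM, which divides counts by transcript length and scales each library to the same sum, and a mean with its SD is over the 2 pups. A gene was called detected at 1 TPM or more in both pups. Differences between pups are log2 ratios of counts scaled by library (TMM), pup 2 over pup 1, each with an exact 95% Clopper-Pearson interval. The intervals and the limit set by a count of 0 (3 counts, or 0.1 TPM in pup 1 and 0.125 TPM in pup 2 at an effective length of 1000 nt) cover counting error only. With 2 littermates and 1 library each there is no test across animals, and the ratios compare these 2 libraries. The basal urothelial keratins of the bladder lining were present, with Krt15 at 716.20 and 693.23 TPM, and so were the mural cell markers of vessel walls, with Rgs5 at 32.76 and 28.04 TPM. Blood cell markers differed between the pups: 9 of 10 macrophage markers, 7 of the 8 erythroid markers counted and 5 of the 6 megakaryocyte markers counted had intervals above equality in pup 2. The medians of those lists were 1.14, 1.39 and 1.21 on the log2 scale, and summed TPM was 565.1 in pup 1 and 1838 in pup 2 for macrophage markers, 21724 and 59108 for erythroid markers, and 317.7 and 429.6 for megakaryocyte markers. All 10 macrophage markers, 7 of 10 erythroid markers and 4 of 8 megakaryocyte markers were detected in both pups, against 58.5% of protein-coding genes. None of these markers was at 0 in both. Liver markers were lower in pup 2, with 6 of 7 intervals below equality, a median of -2.01 and summed TPM of 74.98 and 20.15.

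RNA of all 36 genes was measured in both bladders. Cells other than endothelium also express some of them, as described below for Pdpn and Cd34. Of the 36 genes, 31 reached 1 TPM in both pups, against 58.5% of 21474 protein-coding genes, and 17 reached 10 TPM in both. Their summed TPM was 794 in pup 1 and 784.6 in pup 2. The median of the mean levels of all 36 was 10.02 TPM, against 3.36 TPM for all protein-coding genes. For the protein-coding genes that were detected, a set that leaves out low genes, it was 14.3 TPM. The order ran from Pdpn at 144.4 ± 16.2 TPM and Ecscr at 111.1 ± 2.96 TPM down to Prox1 at 0.15 and 0.22 TPM in the 2 pups. Of the 35 neighbouring pairs in that order, 15 had ranges over the pups that did not overlap, and the other 20 pairs did not differ beyond their spread. Pdpn, Ecscr and Cd34 were each separate from the gene next below, whereas Gpihbp1, Ramp2 and Egfl7, at 48.31 to 49.38, 44.08 to 52.43 and 37.62 to 49.50 TPM, overlapped.

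**Figure D1:**
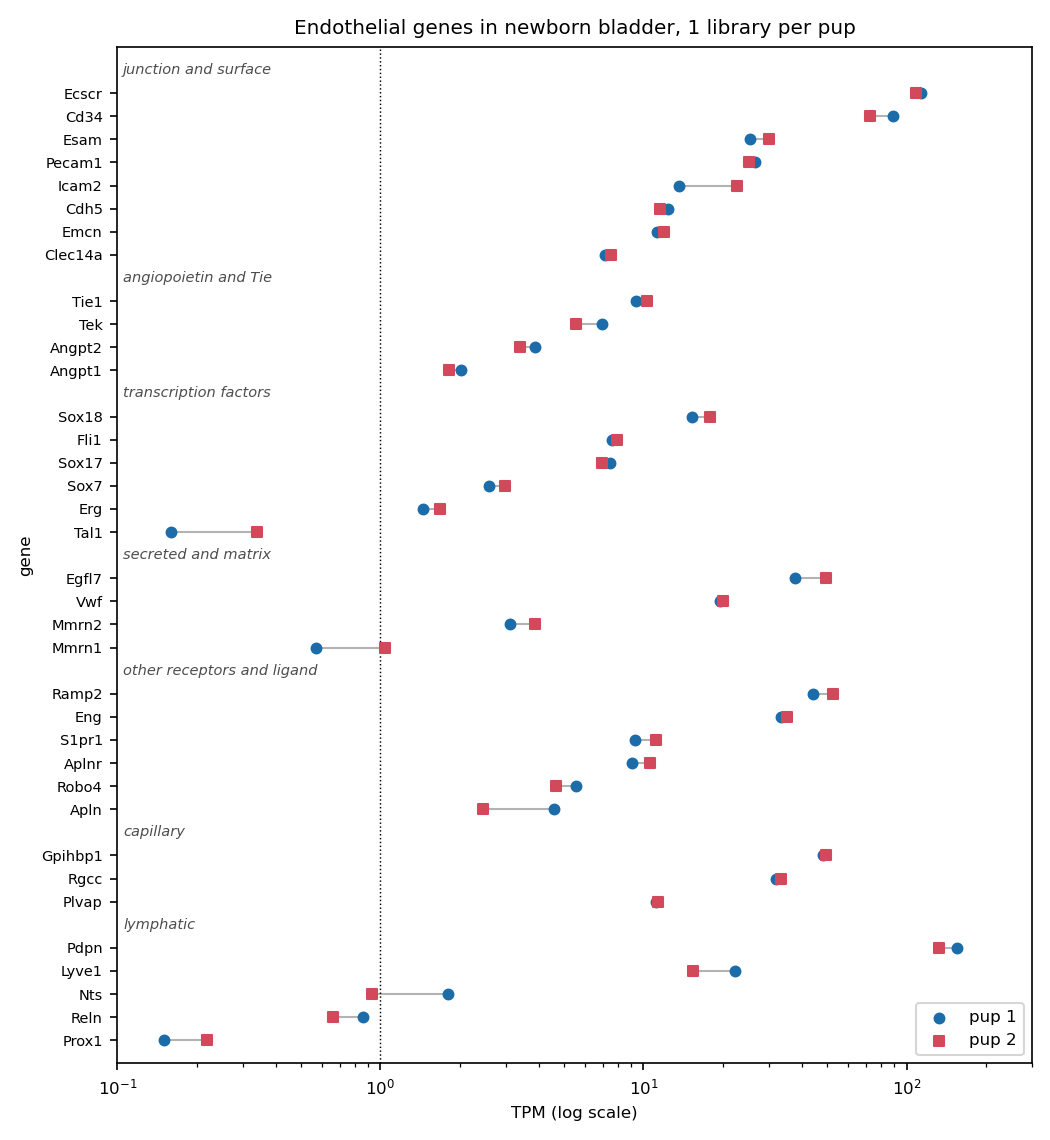
Level of each endothelial gene in the 2 newborn bladders, in TPM on a log axis, grouped by role; circles are pup 1, squares are pup 2 and the dotted line marks 1 TPM. Pdpn, Ecscr and Cd34 lie highest, Prox1, Tal1 and Reln lie left of the line in both pups, and Mmrn1 and Nts lie on either side of it.

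Between the littermates most of these genes differed little, as did most genes of the 2 libraries. All 36 met the minimum of 20 counts on average, and 31 were within 1.5-fold between pups, against 90.4% of the 15607 genes with that count. The median log2 ratio was 0.15, against -0.01 over all those genes, with 26 genes on the positive and 10 on the negative side and a range of -0.87 to 1.13. The interval lay above equality for 15 genes, where 21.3% of all genes did, and below equality for 8, where 26% of all genes did. A single gene, Tal1, was 2-fold or more higher in pup 2, where 2.84% of all genes were, and no gene was 2-fold lower, where 0.871% of all genes were. With ratios of TPM in place of scaled counts, the median was 0.06 for the endothelial genes and -0.09 over all genes, so a gene with equal scaled counts is slightly lower in pup 2 when read as TPM.

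**Figure D2:**
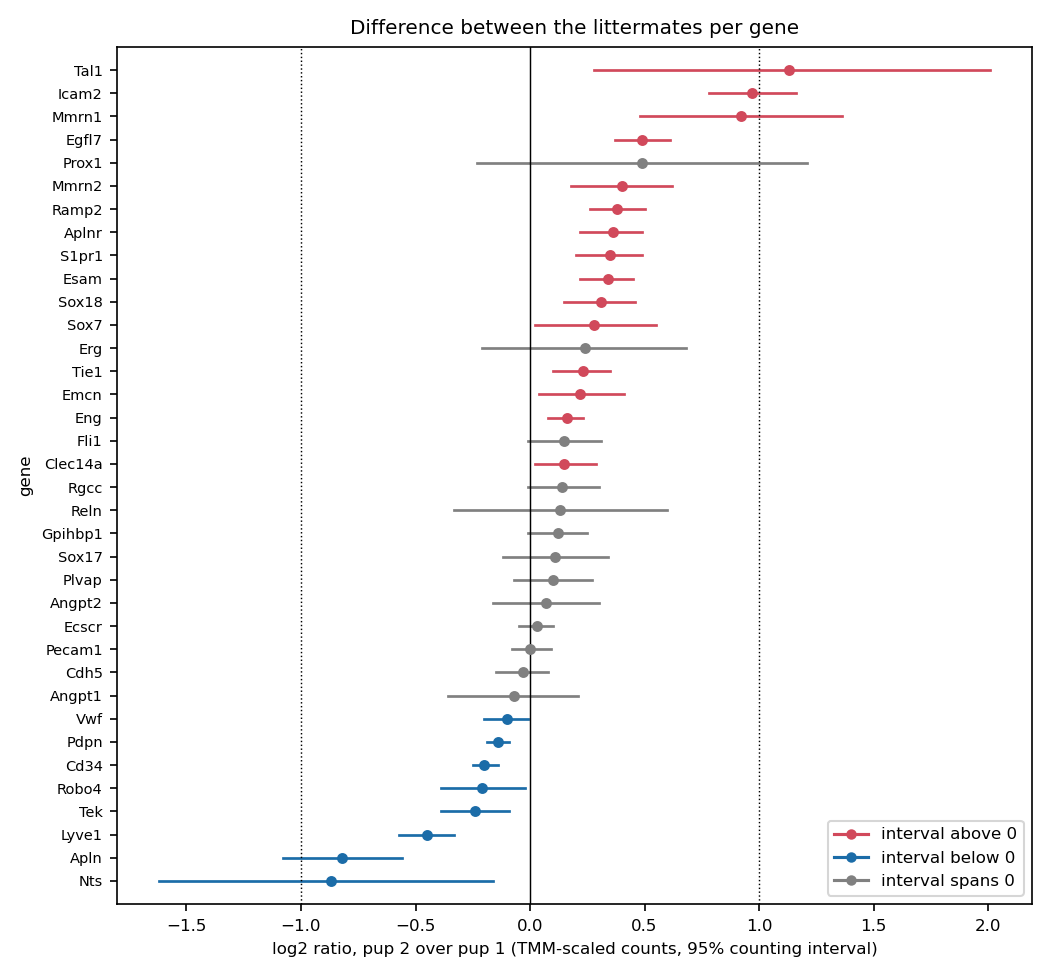
Log2 ratio of pup 2 over pup 1 from TMM-scaled counts for each gene, with its 95% counting interval; dotted lines mark 2-fold. Tal1, Icam2 and Mmrn1 lie farthest right, Nts and Apln farthest left, and Pecam1 and Cdh5 lie at equality.

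Of the 8 junction and surface genes, 7 were within 1.5-fold between the pups, against 90.4% of all genes counted. Pecam1 and Cdh5 lay at equality. Pecam1 (PECAM-1, an adhesion molecule of endothelial contacts; chr11:106654217-106750628) was at 26.53 TPM in pup 1 and 25.21 TPM in pup 2, with a log2 ratio of 0.00 (interval -0.08 to 0.09). Cdh5 (VE-cadherin, the cadherin of endothelial adherens junctions; chr8:104101625-104144511) was at 12.44 and 11.52 TPM, with a ratio of -0.03. Cdh5 therefore stood at 0.469 of the Pecam1 level in pup 1 and 0.457 in pup 2, so the 2 pan-endothelial genes held nearly the same proportion in both animals. Esam, an adhesion molecule of tight junctions, was at 25.40 and 29.91 TPM, with a ratio of 0.34 (interval 0.22 to 0.45). Emcn, the sialomucin of venous and capillary surfaces, was at 11.23 and 11.97 TPM, and Clec14a, a C-type lectin of endothelium, at 7.15 and 7.52 TPM, both with intervals just above equality.

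Cd34 and Ecscr had the highest levels of this group. Cd34 is a surface sialomucin that stromal fibroblasts and blood progenitors carry as well as endothelium, and it was at 88.68 and 72.94 TPM, with a ratio of -0.20 (interval -0.25 to -0.14). Ecscr, a surface regulator of endothelial migration, was at 113.19 and 109.01 TPM, with an interval that spanned equality. The level of Ecscr rested on 3221 and 2478 counts over an effective length of 951 and 950 nt, and its leading transcript took 98.65% and 98.73% of the gene. Per length it stood above Pecam1 and Cdh5 in both pups.

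Icam2 was the exception among the surface genes. It encodes an adhesion molecule of endothelium that platelets and leukocytes also carry, and it lies at chr11:106377656-106388075. It was at 13.64 TPM in pup 1 and 22.60 TPM in pup 2 (18.12 ± 6.34 TPM), from 379 and 562 counts. The log2 ratio was 0.97 (interval 0.78 to 1.16), a 1.96-fold difference, and 0.73 by TPM. Relative to Pecam1 it stood at 0.514 in pup 1 and 0.896 in pup 2. Icam2-201 led in both pups, with 65.8% and 80.47% of the gene from 317.86 and 514.68 counts. The short Icam2-205 took 25.65% and 6.01%, but from only 46.08 and 14.29 counts with posterior SDs (the estimator's uncertainty) of 14.43 and 12.92 reads, and after scaling for depth its difference was smaller than the sum of those SDs. The macrophage and megakaryocyte markers above were also higher in pup 2, and their part in the Icam2 difference was not tested.

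The angiopoietin and Tie genes, which set vessel stability, were low to moderate and near equality. Tek (TIE2, the receptor that binds the angiopoietins) was at 6.98 and 5.53 TPM, with a ratio of -0.24 (interval -0.39 to -0.09), and Tie1, its co-receptor, was at 9.34 and 10.35 TPM, with a ratio of 0.23 (interval 0.10 to 0.35). The receptors thus moved in opposite directions between the pups, and Tie1 stood at 1.34 times Tek per length in pup 1 and 1.87 times in pup 2. Angpt1, the activating ligand made mainly by mural and other mesenchymal cells, was at 2.02 and 1.82 TPM. Angpt2, the ligand that endothelial cells make and that can oppose Angpt1, was at 3.88 and 3.38 TPM. Angpt1 stood at 0.521 and 0.538 of Angpt2 in the 2 pups, and both ligands had intervals that spanned equality. By TPM the ratio of Angpt2 was -0.20 where that of its counts was 0.07: a short Angpt2 transcript annotated as noncoding took 14.59% of the gene in pup 1 and 0% in pup 2. That share rested on 9.38 counts with a posterior SD of 6.72 reads, and by posterior means the shares were 19.38% and 7.89%.

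All 6 transcription factors were on the positive side by scaled counts, where 7389 of all 15607 genes counted were. Their median ratio was 0.26, although by TPM Sox17 was slightly lower in pup 2. Sox18, Sox7 and Sox17 form the SOXF family, which acts in vascular development, arterial identity and the first steps of lymphatic specification. Sox18 was the highest, at 15.31 and 17.92 TPM, with a ratio of 0.31 (interval 0.15 to 0.46). Sox17 was at 7.43 and 6.95 TPM and Sox7 at 2.59 and 2.98 TPM, and the proportion of Sox18 to Sox7 was 5.91 in pup 1 and 6.01 in pup 2. The ETS factors Fli1 and Erg, which keep endothelial genes active, were at 7.59 and 7.91 TPM and at 1.45 and 1.68 TPM, both with intervals that spanned equality. Fli1, which blood cells and megakaryocytes also express, stood 5.23 and 4.71 times above Erg. Tal1, a basic helix-loop-helix factor of blood and endothelial progenitors (chr4:115056426-115071755), was at 0.16 and 0.34 TPM from only 20 and 33 counts. Its ratio of 1.13 (interval 0.28 to 2.01) was 2.18-fold, and the erythroid and megakaryocyte markers were higher in the same pup; their part in it was not tested.

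Of 12 further transcription factors of endothelium, 11 were detected, against 58.5% of protein-coding genes, and the median ratio was -0.04. Among 11 genes counted, 2 intervals lay above and 4 below equality, against 21.3% and 26% of all genes. Ets2 was highest, at 37.26 and 29.57 TPM, followed by the endothelial and blood factor Gata2 at 31.34 and 29.02 TPM and the venous regulator Nr2f2 at 30.54 and 25.51 TPM. These are levels of the whole bladder, and the share from endothelium was not tested. Etv2, the ETS factor that starts the endothelial programme in the embryo, had 0 counts in both pups.

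Promoter windows from RefSeq (build GRCm38.p6; 250 bases before and 50 after an annotated start) were given for 17 of the 36 genes, and 1 window per gene, the nearest to the start of its leading transcript, was searched on both strands. The ETS letters GGAAGT were in 5 of 17 windows (29.4%), against 23.8% of all 32851 windows and 27.5% of the 12603 windows of detected genes. The SOX letters AACAAT were in 4 of 17 (23.5%), against 10.7% and 5.7%, and the E-box letters CAGATG, a form that Tal1 complexes can bind, in 4 of 17 (23.5%), against 17.2% and 11.5%. The shares for the endothelial genes rest on 4 or 5 windows, no motif of the 3 contains another, and a match describes these letters, not a bound site. The ETS match began 79 bases before the RefSeq start in Egfl7, 53 in Eng, 245 in Rgcc, 82 in Tie1 and 118 in Mmrn1. In Tie1 and Mmrn1 that start lay 212 and 159 nt from the start of the leading transcript. For these 2 genes the match is therefore not placed relative to the transcript that led. The SOX letters were found in Tek, Emcn, Erg and Mmrn1. The 250 bases before the start are shown for Egfl7, Eng and Rgcc, the 3 genes with an ETS match whose RefSeq start lies within 15 nt of the start of the leading transcript, and for Apln, which had none of the 3 motifs and a lower level in pup 2. They are written 5′ to 3′ on the strand of the gene, with the ETS match in capitals (ACTTCC is the same motif read on the other strand). The windows are chr2:26583615-26583864 on the plus strand for Egfl7, chr2:32646345-32646594 on the plus strand for Eng, chr14:79301636-79301885 on the minus strand for Rgcc and chrX:48034854-48035103 on the minus strand for Apln.
Egfl7: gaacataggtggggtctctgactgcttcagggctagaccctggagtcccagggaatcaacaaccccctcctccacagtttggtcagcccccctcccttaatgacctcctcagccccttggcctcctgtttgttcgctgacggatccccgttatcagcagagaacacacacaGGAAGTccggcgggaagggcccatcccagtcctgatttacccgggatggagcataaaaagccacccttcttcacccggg
Eng: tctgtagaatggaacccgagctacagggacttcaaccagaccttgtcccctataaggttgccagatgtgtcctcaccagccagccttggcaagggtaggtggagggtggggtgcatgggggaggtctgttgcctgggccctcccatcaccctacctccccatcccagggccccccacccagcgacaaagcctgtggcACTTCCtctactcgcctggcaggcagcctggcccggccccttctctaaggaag
Rgcc: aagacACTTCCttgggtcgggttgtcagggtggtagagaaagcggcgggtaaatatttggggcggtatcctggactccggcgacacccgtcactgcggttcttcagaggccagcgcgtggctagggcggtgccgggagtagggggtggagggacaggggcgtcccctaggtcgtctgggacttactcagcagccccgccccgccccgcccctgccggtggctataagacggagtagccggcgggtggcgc
Apln: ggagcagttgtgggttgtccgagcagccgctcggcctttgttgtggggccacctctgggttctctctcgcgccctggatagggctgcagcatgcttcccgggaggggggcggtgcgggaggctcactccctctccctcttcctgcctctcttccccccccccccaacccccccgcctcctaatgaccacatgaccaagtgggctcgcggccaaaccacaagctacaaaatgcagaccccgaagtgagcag

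Among the secreted and matrix genes, 3 of 4 had intervals above equality, against 21.3% of all genes counted. Egfl7 (chr2:26580014-26593120), a matrix protein that endothelium secretes to guide tube formation and whose gene hosts a microRNA, was at 37.62 and 49.50 TPM (43.56 ± 8.4 TPM), with a ratio of 0.49 (interval 0.37 to 0.61). Pup 2 was higher although the Egfl7 transcripts not annotated as coding took a similar share in both, at 25.4% and 26.4%. Egfl7 overlaps Agpat2 on the other strand, which had 1192 and 932 counts, and the strand setting of the counting is not known. Mmrn2, a matrix protein of endothelium, was at 3.10 and 3.87 TPM, with a ratio of 0.40. Its relative Mmrn1 (chr6:60924976-60989378), stored in platelets and also made by lymphatic endothelium, was at 0.57 and 1.04 TPM from 75 and 107 counts. The Mmrn1 ratio was 0.92 (interval 0.48 to 1.36), and Mmrn2 stood 5.44 times above it in pup 1 and 3.72 times in pup 2. Megakaryocyte markers were higher in pup 2 as well, with Pf4 at 299.37 and 395.53 TPM, and their part in the Mmrn1 difference was not tested.

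Vwf, the gene of von Willebrand factor, is the case where the level depends on how reads were divided among transcripts. It lies at chr6:125546774-125686679, and its protein, stored in endothelium and megakaryocytes, tethers platelets to injured vessel walls. The gene was at 19.46 and 20.05 TPM, from 2144 and 1510 counts, and the ratio was -0.10 (interval -0.20 to -0.01) by counts and 0.04 by TPM. The 456-nt Vwf-209, annotated as a processed transcript, took 37.68% and 40.59% of the gene on only 78.37 and 69.49 counts. Transcripts annotated as noncoding, or as targets of nonsense-mediated decay, took 61% of Vwf TPM in pup 1 and 68.1% in pup 2, on 428 and 389 counts. The other transcripts summed to 7.59 and 6.40 TPM, nearer to the levels of Tek and Tie1 than to that of Pecam1. Besides Vwf, the lymphatic gene Reln also had more than 50% of its TPM in such transcripts in both pups.

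The other receptors and ligands include apelin signalling, the ALK1 co-receptor endoglin and the adrenomedullin system. Ramp2, the partner that turns Calcrl into the adrenomedullin receptor, was at 44.08 and 52.43 TPM, with a ratio of 0.38 (interval 0.26 to 0.50). Calcrl was at 16.65 and 12.55 TPM, in the opposite direction, so Ramp2 stood 2.65 times above Calcrl in pup 1 and 4.18 times in pup 2. The ligand Adm was at 30.75 and 25.71 TPM. Ramp2 overlaps Vps25 on the same strand, and 33.3% and 32.4% of its TPM lay in transcripts not annotated as coding. Eng, the endoglin co-receptor for BMP9, was at 33.32 and 35.02 TPM, with a ratio of 0.16 (interval 0.08 to 0.23), beside Acvrl1, the receptor it assists, at 19.70 and 18.83 TPM. S1pr1, the receptor for the plasma lipid sphingosine-1-phosphate that keeps the vessel barrier closed, was at 9.27 and 11.14 TPM, with a ratio of 0.35. Robo4, a Roundabout-family receptor of endothelium, was at 5.55 and 4.63 TPM, with a ratio of -0.21 (interval -0.39 to -0.02), and the Slit ligand gene Slit3 was at 21.10 and 21.24 TPM.

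Apln and its receptor went in opposite directions. Apln (chrX:48025146-48034853) encodes apelin, a peptide that sprouting tip cells secrete. It was at 4.58 TPM in pup 1 and 2.45 TPM in pup 2, from 418 and 179 counts in a single transcript, with a ratio of -0.82 (interval -1.08 to -0.56), or 1.76-fold lower in pup 2. Aplnr, its receptor (chr2:85136225-85139923), was at 9.07 and 10.60 TPM, with a ratio of 0.36 (interval 0.22 to 0.49). Aplnr therefore stood 1.98 times above Apln in pup 1 and 4.33 times in pup 2. Esm1, another gene of tip cells, was also lower in pup 2, at 1.04 and 0.54 TPM from 62 and 26 counts, with a ratio of -0.85. The list of capillary and tip cell genes as a whole did not share that direction: 5 of its 7 genes had positive ratios. For 3 of them the interval lay above equality, where 21.3% of all genes did.

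For none of the 3 capillary genes was a difference between the pups larger than counting error. Gpihbp1, the protein that carries lipoprotein lipase to the capillary surface, was at 48.31 and 49.38 TPM, Rgcc, a cell cycle regulator that endothelial cells express, at 31.94 and 33.39 TPM, and Plvap, the protein of the diaphragms that bridge endothelial openings, at 11.16 and 11.35 TPM. Their ratios were 0.10 to 0.14 and all 3 intervals spanned equality. Lpl, the lipase that Gpihbp1 binds, was at 13.85 and 18.79 TPM, and Gpihbp1 stood 3.49 times above it in pup 1 and 2.63 times in pup 2. Of the 7 other capillary and tip cell genes, the water channel Aqp1 was highest, at 257.88 and 260.24 TPM, followed by Ly6c1 at 63.70 and 75.17 TPM and the fatty acid receptor Cd36 at 17.07 and 20.03 TPM. The other 4 were at 2.85 TPM or less in both pups. These are levels of the whole bladder, and how much of each came from capillaries was not tested.

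The lymphatic genes spanned the whole range of levels. Prox1, the regulator of lymphatic identity (chr1:190118035-190170714), was the lowest of the 36 genes, at 0.15 and 0.22 TPM from 34 and 36 counts, with an interval that spanned equality. Pdpn (podoplanin, chr4:143267431-143299564) was the highest, at 155.91 and 132.97 TPM, with a ratio of -0.14 (interval -0.19 to -0.09). Per length, Pdpn stood 1039 times above Prox1 in pup 1 and 604 times in pup 2. Podoplanin is also a surface protein of mesothelium, fibroblasts and basal epithelial cells, and their markers were abundant: the mesothelial list summed to 396.8 and 377.5 TPM, the fibroblast list to 10031 and 8694 TPM and the basal urothelial list to 1150 and 1153 TPM, with every gene of the 3 lists detected. How much of Pdpn came from such cells was not tested. Clec1b, the platelet receptor for podoplanin, was at 0.24 and 1.72 TPM from 8 and 41 counts.

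Lyve1, the hyaluronan receptor of lymphatic vessels that some tissue macrophages also carry (chr7:110850607-110863239), was at 22.29 TPM in pup 1 and 15.45 TPM in pup 2 (18.87 ± 4.84 TPM). It had 1673 and 927 counts in a single transcript and a ratio of -0.45 (interval -0.57 to -0.33). Lyve1 stood 149 and 70.2 times above Prox1. Mrc1, a macrophage surface receptor, was the one macrophage marker that was lower in pup 2, at 16.90 and 13.13 TPM with a ratio of -0.47, close to that of Lyve1, while the other 9 markers were higher. Lyve1 stood at 1.32 and 1.18 times Mrc1, and whether the pair reflects a shared cell type was not tested. Nts (neurotensin, made by neurons as well as by some lymphatic endothelium) was at 1.80 and 0.93 TPM from 58 and 24 counts, with a ratio of -0.87 (interval -1.62 to -0.16). Reln (reelin, secreted by lymphatic endothelium and neurons) was at 0.86 and 0.66 TPM with an interval that spanned equality, and its coding transcripts summed to 0.20 TPM in both pups.

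Of the 7 other lymphatic genes, 4 were detected, near the 58.5% of all protein-coding genes, and the median ratio was 0.06. For 1 gene the interval lay above and for 1 below equality, against 21.3% and 26% of all genes. The integrin chain Itga9 was highest, at 12.49 and 9.59 TPM, followed by the growth factor Vegfc at 5.29 and 5.61 TPM. Its receptor Flt4 was at 0.89 and 0.94 TPM, below 1 TPM in both pups like Prox1. How much of each level came from lymphatic vessels was not tested in these whole bladders. The chemokine Ccl21a was at 3.19 and 6.69 TPM from 74 and 123 counts, with posterior SDs of 7.74% and 5.05% of those counts. Its ratio of 1.14 was opposite in sign to those of Lyve1 and Nts. Of the 7 genes 5 had positive and 2 negative ratios, so the lymphatic genes had no common direction between the pups.

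The pan-endothelial, arterial, venous and partner lists had medians near equality, as did all genes counted (-0.01). For comparison with the detection counts of these lists, 58.5% of all protein-coding genes were detected. All 12 further pan-endothelial genes were detected, with a median ratio of -0.05. Of their intervals 3 lay above and 2 below equality, against 21.3% and 26% of all genes. Cldn5, the tight junction claudin of endothelium, was at 24.62 and 31.83 TPM, close to Esam in level and in ratio (0.45), and the VEGF receptor Kdr was at 6.77 and 6.34 TPM. Of 9 arterial genes 6 were detected, with a median of 0.04, led by Efnb2, the arterial ephrin, at 15.89 and 14.17 TPM. Of 6 venous genes 5 were detected, with a median of -0.12, led by the co-receptor Nrp2 at 85.78 and 70.47 TPM, which stromal and muscle cells also express. The venous list held 1 gene far from the others: Selp, the P-selectin of endothelium and platelets, was at 0.51 and 2.03 TPM, with a ratio of 1.78 (51 and 132 counts). Of the 12 ligands, receptors and partners of the 36 genes, 10 were detected, with a median of 0.09.

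**Figure D3:**
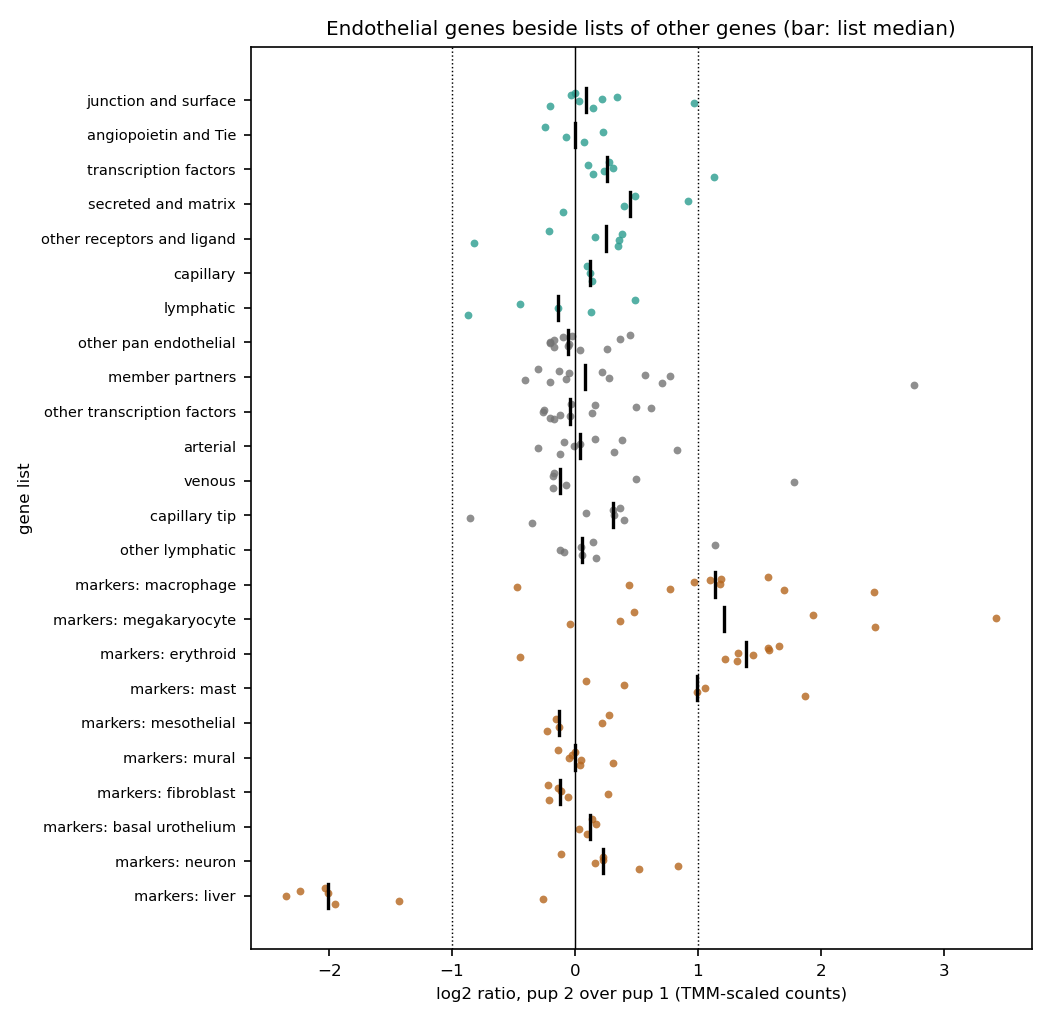
Log2 ratio of pup 2 over pup 1 (TMM-scaled counts) for each gene with a mean count of at least 20; green points are the 36 genes by role, grey points other vessel genes and their partners, brown points markers of other cell types, and black bars are list medians. The vessel lists have medians between -0.14 and 0.44, the macrophage, megakaryocyte, erythroid and mast cell lists lie at 0.99 to 1.39, and the liver list lies at -2.01.

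Most of the endothelial genes used the same leading transcript in both pups, as did most genes of the whole data set. Of the 19 with 2 or more annotated transcripts and 100 or more counts on average, 17 had the same one, against 91% of 9183 genes of the whole data set, and Robo4 and Sox17 did not. In Robo4 (chr9:37401897-37415115) the coding transcript Robo4-203 took 66.72% of the gene in pup 1 and 25.40% in pup 2, and Robo4-201 took 25.64% and 60.56%. The counts behind these shares were 417.01 and 105.69 for Robo4-203, with posterior SDs of 64.03 and 46.57 reads, and 153.0 and 240.59 for Robo4-201, with posterior SDs of 51.78 and 35.67 reads. After scaling for depth, both transcripts differed between the pups by more than the sum of their posterior SDs. These SDs describe the division of reads, and neither counting error nor the spread between animals. In Sox17 (chr1:4490931-4497354) Sox17-204 led in pup 1 with 31.03% and had 22.63% in pup 2, and Sox17-208 took 18.57% and 31.13%. Sox17-204 had 51.12 and 27.89 counts with posterior SDs of 8.59 and 6.82 reads, and its scaled difference was smaller than the sum of those SDs. Sox17-208 had 77.55 and 97.21 counts with posterior SDs of 17.76 and 16.06 reads. Its scaled difference was larger than their sum, a comparison that leaves out the counting error of these low counts. Within Eng the lead did not change, but Eng-202 took 18.86% in pup 1 and 4.71% in pup 2, from 549.53 and 115.39 counts with posterior SDs of 107.67 and 70.2 reads. In Vwf the full-length pair could not be separated, since the posterior SD of Vwf-203 was 471.46 of 1197.38 reads in pup 1.

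**Figure D4:**
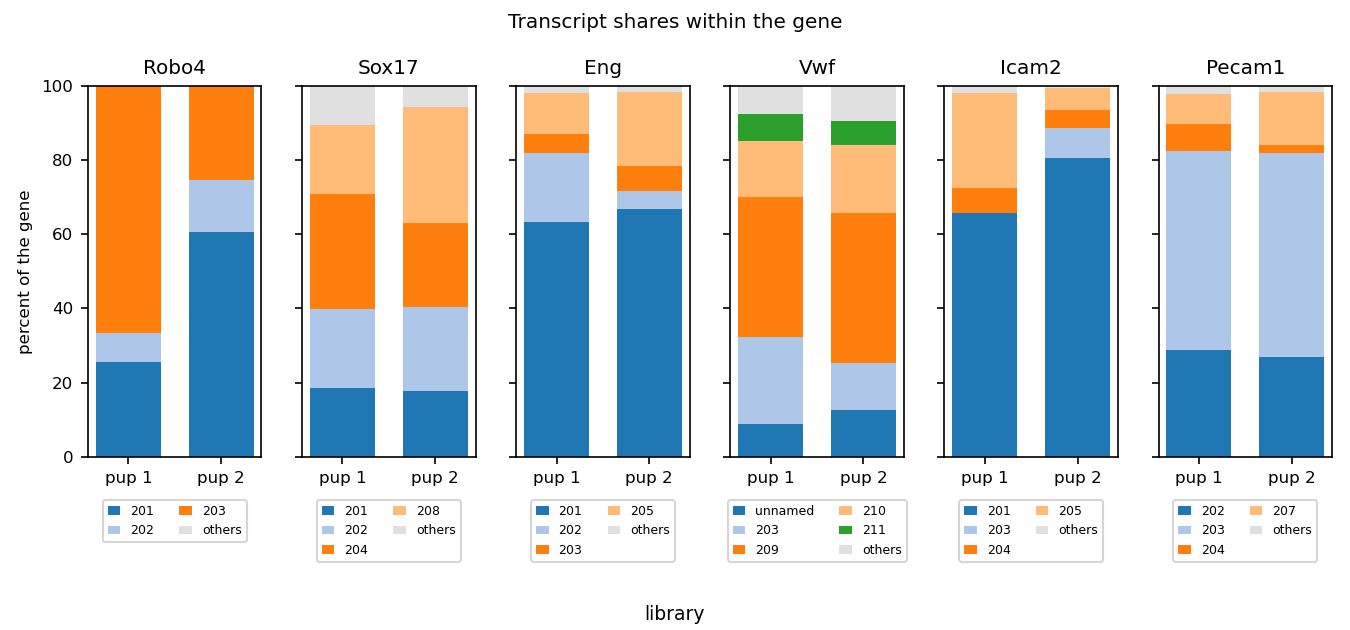
Share of each gene's TPM taken by its transcripts in the 2 pups, for 6 endothelial genes; numbers in the legends are the annotated transcript suffixes, and "unnamed" is a Vwf transcript without a name in the annotation used. Robo4-203 takes 66.72% in pup 1 and 25.40% in pup 2, whereas Pecam1-203 takes 53.67% and 55.13%.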

How the data were processed

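Per the file headers, the authors deposited 1 gene table and 1 transcript table per library in the RSEM layout, made on mm10 with the GENCODE M4 gene models (per the listing deposited beside them). Aligner, strand setting and RSEM version were not given in the sources used here. Expected counts, as deposited by the authors, are estimated counts per feature that are not normalised and include a share of multi-mapped reads, and their posterior SD is the estimator's own uncertainty in reads. The deposited TPM values are scaled over all entries, spike-ins included, and the deposited percent of the gene is each transcript's share of the TPM of its gene. The mirVana method was used for RNA extraction, per the labels' protocols, and a manual of a SMARTer low-input cDNA kit is linked. The pups are separate animals of 1 litter, so the spread between them is that of littermates. TPM of a gene changes with the division of its reads among transcripts of unequal length, and without strand information 13 of the 36 genes that overlap another annotated gene may share its reads, 5 of them with a gene of at least 100 counts.

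Symbols, types and coordinates were taken from GENCODE M21, on the same assembly, by identifier (42462 of 43346 mouse genes matched). Expected counts were rounded and scaled with TMM factors over all mouse genes (edgeR 4.0.16, R 4.3.3), leaving out 26248 numeric and 97 spike-in entries, which held 395 counts in pup 1 and 307 in pup 2. Ratios and counts of genes needed a mean count of at least 20 and leading transcripts a mean count of at least 100. A count of 0 was set to 3. DESeq2 1.42.0 size factors, library totals, posterior mean values, other count minimums, scaling without globin and mitochondrial genes, and TPM ratios with and without 1 added were tried as alternatives. The steps were tested on simulated data. Tables were handled in pandas 2.3.3 and numpy 2.4.6 under Python 3.11.15, intervals came from scipy 1.17.1 and plots from matplotlib 3.10.9.

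The 36 genes and all other lists were chosen with earlier results of these data known. All 36 were named, and of each other list up to 3 genes by mean TPM and those with 0 counts in both pups. Calcrl, Clec1b, Selp, Esm1, Ccl21a, Flt4, Mrc1, and the promoters shown, were chosen after their values were seen.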

Additional observations from a re-analysis of the deposited data

How the results depend on the processing

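Of 282 ratios of single genes under the alternatives, 263 stayed within the counting interval of the main value. Another 17 lay outside it, with either no change of sign or an interval that spanned equality. The other 2, both of Vwf, changed sign although the interval excluded equality. Of the 263, the 36 with no minimum count and the 30 with a mean count of at least 100 were fixed in advance. Those settings only filter genes and leave each ratio as it was. All ratios outside the interval were TPM ratios. Deposited TPM kept 27 of 36 genes inside it, and TPM with 1 added kept 26 of 36. Among genes whose interval spanned equality, Sox17, Ecscr, Angpt2 and Reln also changed sign by deposited TPM, to -0.10, -0.05, -0.20 and -0.38. Pecam1, just above 0 by scaled counts (0.00 when rounded), was at -0.07 by deposited TPM. The log2 ratio of Vwf was -0.10 by scaled counts, 0.04 by deposited TPM and 0.04 by TPM with 1 added. Its effective length was 3680 nt in pup 1 and 3149 nt in pup 2. The number of genes 2-fold higher in pup 2 was 0 with a mean count of at least 100, since Tal1 then had too few counts. The summed TPM was 864.7 when TPM was rescaled without globin and mitochondrial genes, against 789.3. With either pup alone, 32 genes were at 1 TPM or more, the summed TPM was 784.6 to 794 and the median level was 9.305 to 10.87 TPM. No paired analysis was possible because the 2 pups form a single group. Depth limits the lowest genes: Tal1, Prox1, Nts and Reln had 20 to 88 counts.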
